A study of Oryza sativa Japonica Group with 9 samples.

Results

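Auxin response factors (ARFs) are transcription factors that bind auxin-responsive promoters, and 8 rice ARF genes that are known targets of small RNAs are described here out of 55986 gene models in the deposited table. They were taken by locus. OsARF2 (LOC_Os01g48060), OsARF3 (LOC_Os01g54990), OsARF14 (LOC_Os05g43920) and OsARF15 (LOC_Os05g48870) are the ETTIN-like genes targeted by trans-acting small interfering RNAs (tasiRNAs). OsARF8 (LOC_Os02g41800), OsARF10 (LOC_Os04g43910), OsARF18 (LOC_Os06g47150) and OsARF22 (LOC_Os10g33940) are targeted by the microRNA miR160. All 8 loci were present, and all 8 passed the filter on low values.

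In plants both routes cut ARF transcripts. The tasiRNAs come from TAS3 transcripts, which are cut by miR390 held in AGO7, copied into double strands by RDR6 with SGS3, and diced by DCL4. In Arabidopsis the ETTIN-like factors act in leaf polarity and in the patterning of floral organs, and the miR160 targets restrain auxin responses in roots, embryos and germinating seeds. In rice a miR160-resistant form of OsARF18 is known to disturb plant growth. Transcript levels in these libraries do not measure the small RNAs themselves.

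RNA sequencing was applied to caryopses (developing grains) of the japonica cultivar Nipponbare, with 3 libraries of unedited wild type (WT), 3 of plants labelled GSK5-/- and 3 of plants labelled ARF4-/-. GSK5 is a GSK3-like protein kinase and ARF4 an auxin response factor outside the small-RNA-targeted set; the labels state neither the alleles nor how many edited lines were used, and they name no treatment. By the sample labels all 9 libraries are from day 9 after flowering; the series text has 7 to 8 days instead. Whether replicates were separate plants is not stated, so the p-values reflect a library-to-library spread that may be technical.

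Values are FPKM, fragments scaled to gene length and library size, and summed FPKM ran from 585414 to 626390 per library. The edited gene OsARF4 (LOC_Os01g70270) stood at 91.82, 92.48 and 67.58 FPKM in WT, at 75.43, 74.71 and 84.72 in GSK5 and at 54.21, 49.52 and 47.61 in ARF4. It fell in ARF4 against WT by 0.71 on the log2 scale (SE 0.14, limma adjusted p = 0.0388), and over 18 alternatives the change stayed between -0.86 and -0.63. The call was lost in 12 of them, with adjusted p from 0.00805 to 0.172. At LOC_Os03g62500, entered as GSK5 with its name unchecked, there were 32.07, 39.33 and 47.96 FPKM in WT, 31.1, 33.99 and 31.55 in GSK5 and 34.3, 48.27 and 39.67 in ARF4. An edit need not alter the transcript level. The endosperm list held 5 loci for starchy endosperm and its outer layer. Of these, the starch synthase gene Wx reached at most 4.16 FPKM and the endosperm regulator gene NF-YB1 at most 0.48 FPKM in any library. Endosperm is nonetheless the main tissue of a filling grain. The starch synthase gene SSI, at 34.31 to 82.84 FPKM, was well above the filter in every library. So was the locus entered as the starch branching enzyme gene BEIIb (name unchecked), at 30.67 to 51.45 FPKM. The sugar transporter gene SWEET11 was high, at 293.19, 571.07 and 1515.53 FPKM in WT, 1280.51, 1473.39 and 1370.26 in GSK5 and 1006.05, 169.28 and 1333.99 in ARF4. In such bulk tissue, fewer cells of a type and less RNA per cell cannot be told apart.

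The tasiRNA targets differed in level and in how far they varied. OsARF3 had 5.49, 11.65 and 20.6 FPKM in WT (here and below in the order of replicates 1, 2 and 3), 16.64, 19.59 and 18.63 in GSK5 and 16.42, 30.36 and 13.74 in ARF4. WT replicate 1 was the lowest and ARF4 replicate 2 the highest, 5.53 times apart, and every group overlapped every other. OsARF2, which RefSeq also lists as OsETTIN2, had 5.05, 6.19 and 8.81 FPKM in WT, 8.17, 9.51 and 8.14 in GSK5 and 9.39, 14.86 and 7.06 in ARF4. The same libraries lay at its ends, 2.94 times apart, and its groups overlapped. OsARF14 had 4.08, 5.39 and 4.79 FPKM in WT, 5.5, 4.95 and 5.16 in GSK5 and 5.68, 7.16 and 5.29 in ARF4. It was the least abundant by group mean, and its extremes, again WT replicate 1 and ARF4 replicate 2, were 1.75 times apart. OsARF15, which RefSeq also lists as OsETTIN1, had 17.67, 20.02 and 16.38 FPKM in WT, 17.15, 19.25 and 21.36 in GSK5 and 14.22, 17.65 and 14.44 in ARF4. Its lowest library was ARF4 replicate 1 and its highest GSK5 replicate 3, 1.5 times apart, so it shared neither extreme with the other tasiRNA targets.

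The miR160 targets included both the most abundant and the most variable of the 8 genes. OsARF22 had 32.52, 32.55 and 51.18 FPKM in WT, 43.74, 47.87 and 45.75 in GSK5 and 46.3, 47.57 and 44.22 in ARF4. Both edited groups lay above WT replicates 1 and 2 and below WT replicate 3. OsARF8 had 6.56, 16.16 and 20.36 FPKM in WT, 22.71, 22.2 and 22.79 in GSK5 and 24.95, 41.24 and 18.95 in ARF4. Every GSK5 library lay above every WT library, whereas ARF4 overlapped both. OsARF10 had 2.27, 8.22 and 17.61 FPKM in WT, 11.77, 10.92 and 14.94 in GSK5 and 20.92, 34.26 and 4.21 in ARF4. Its lowest and highest libraries were 15.1 times apart, and the WT libraries alone 7.76 times and the ARF4 libraries alone 8.14 times. OsARF18 had 15.61, 17.4 and 19.12 FPKM in WT, 18.17, 17.88 and 17.39 in GSK5 and 16.73, 27.59 and 15.27 in ARF4. Apart from ARF4 replicate 2 its libraries lay between 15.27 and 19.12 FPKM.

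**Figure D1:**
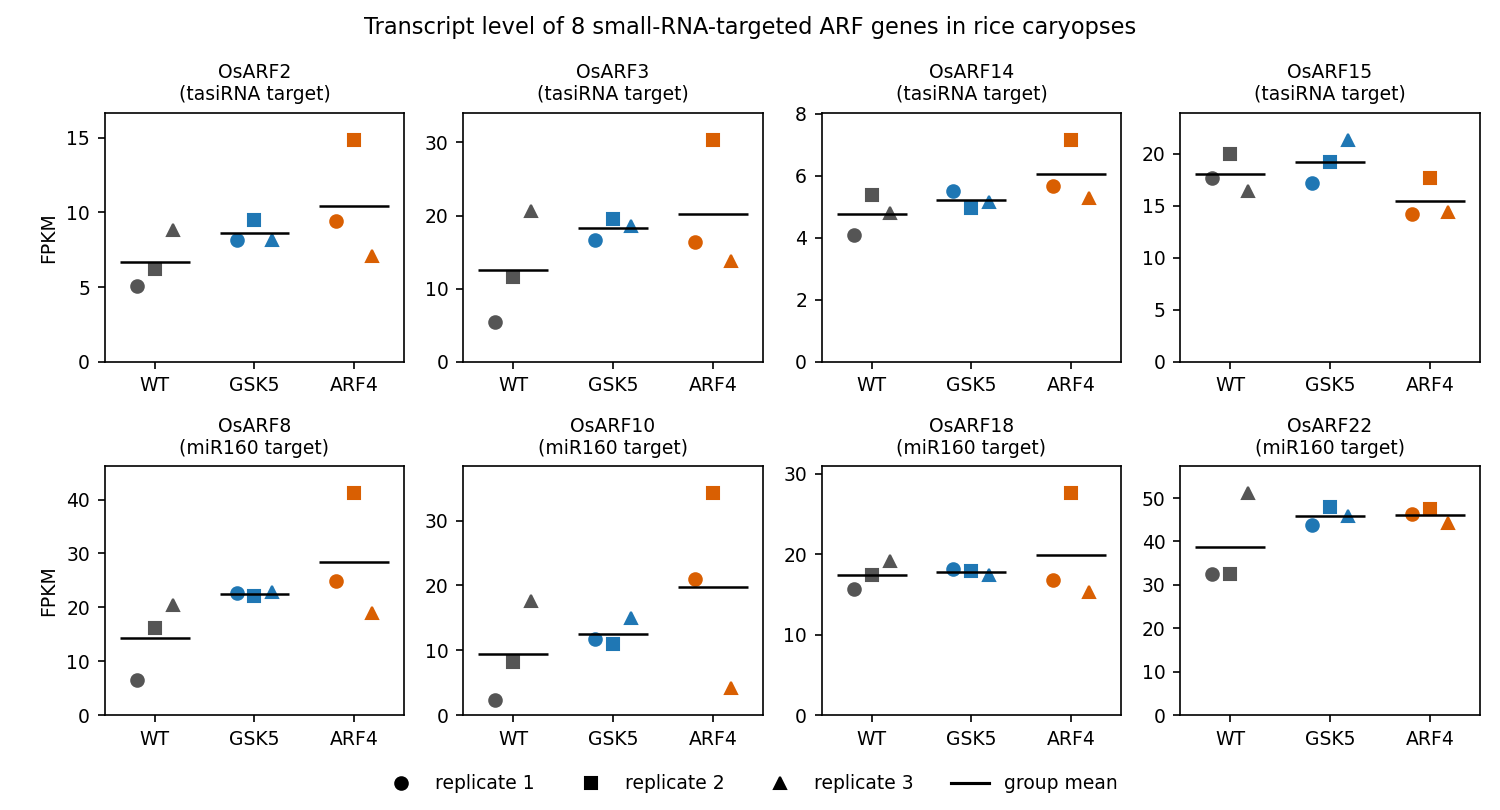
Transcript level in FPKM (vertical axes from 0, one scale per gene) of the 8 genes in WT, GSK5-edited and ARF4-edited caryopses; symbols are replicates 1, 2 and 3, and lines are group means of 3 libraries. GSK5 libraries lie closer together than WT libraries for every gene but OsARF15. The median tested gene also had a smaller SD of log2(FPKM + 1) in GSK5 (0.114) than in WT (0.272). OsARF10 spans 2.27 to 17.61 FPKM in WT and 4.21 to 34.26 in ARF4.

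OsARF22 was the most abundant of the 8 genes in 9 of 9 libraries, with a mean over all libraries of 43.5 FPKM, at or above 88.1% of tested genes. Its range did not overlap that of the gene next in order in any group. OsARF2 lay above OsARF14 in 9 of 9 libraries, and these were the lowest group means throughout. In WT the order of means below OsARF22 was OsARF15 (18.02 FPKM), OsARF18 (17.38), OsARF8 (14.36), OsARF3 (12.58), OsARF10 (9.37), OsARF2 (6.68) and OsARF14 (4.75), and each neighbouring pair overlapped. In GSK5 OsARF8 came next after OsARF22 at 22.57 FPKM, above OsARF15 (19.25) without overlap. OsARF15, OsARF3 (18.29) and OsARF18 (17.81) overlapped as neighbours there, while OsARF10 (12.54), OsARF2 (8.61) and OsARF14 (5.2) were each separate from the gene next in order. In ARF4 OsARF8 (28.38 FPKM), OsARF3 (20.17), OsARF18 (19.86), OsARF10 (19.8), OsARF15 (15.44), OsARF2 (10.44) and OsARF14 (6.04) followed OsARF22, and each pair of neighbours below OsARF22 overlapped.

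The first comparison asks whether editing GSK5 moved these transcripts. None of the 8 genes passed the limma test (0 called of 8; 2.15% of the 23385 genes tested were called), and 0 of 8 had an unadjusted p under 0.05, against 18.5% of tested genes. The largest log2 changes were those of OsARF8 at 0.75 (SE 0.4, 95% interval -0.16 to 1.66, adjusted p = 0.341), OsARF10 at 0.7 (SE 0.78, -1.09 to 2.5, adjusted p = 0.621) and OsARF3 at 0.67 (SE 0.43, -0.32 to 1.66, adjusted p = 0.413). These intervals leave room for more than a doubling as well as for a lower level. The size of the changes moved with single WT libraries. Without WT replicate 1 those of OsARF8, OsARF10 and OsARF3 stood at 0.3, 0.04 and 0.22. Without WT replicate 3 they stood at 1.05, 1.29 and 1.09, with no call among these genes in either setting. For these genes WT replicate 1 was the lowest and WT replicate 3 the highest WT library, so the direction of each move was fixed. OsARF18 had the smallest change, 0.04, with an interval of -0.43 to 0.5, and the intervals of OsARF14 (-0.23 to 0.46) and OsARF15 (-0.22 to 0.4) were also narrow. OsARF2 changed by 0.35 (-0.26 to 0.96) and OsARF22 by 0.27 (-0.13 to 0.66). The median over the 8 genes was 0.31, against 0.11 over all tested genes, a difference of 0.19 before rounding. In this comparison the median of all genes moved by more than 0.1 with the scaling, to -0.00637 under quantile normalization. The fitted change was above 0 for 8 of 8 genes and for 63.1% of tested genes; the sign reversed for OsARF14 under quantile normalization, for OsARF15 under median-of-ratios scaling and for OsARF18 under either. OsARF8 was the single gene whose groups did not overlap, where 18.3% of tested genes lay higher in GSK5 without overlap.

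Editing of ARF4 was compared with WT next. Again 0 of 8 genes were called by limma (3.32% of genes tested were called). OsARF8 alone had an unadjusted p under 0.05, against 24.9% of tested genes; its log2 change was 0.99 (SE 0.4, 95% interval 0.08 to 1.9), with adjusted p = 0.172. The group means were 28.4 ± 11.5 FPKM in ARF4 and 14.4 ± 7.07 in WT (SD, n = 3). OsARF10 had a change of 0.95 (SE 0.78, -0.84 to 2.74, adjusted p = 0.465), OsARF3 of 0.73 (SE 0.43, -0.26 to 1.71, adjusted p = 0.317) and OsARF2 of 0.55 (SE 0.27, -0.07 to 1.16, adjusted p = 0.24). OsARF14, OsARF22 and OsARF18 had changes of 0.29, 0.27 and 0.14. OsARF15 was the one gene with a fitted change below 0, at -0.21 (SE 0.13, -0.52 to 0.09, adjusted p = 0.344), and this sign held in all 18 alternatives. The median over the 8 genes was 0.42, against 0.05 over all tested genes. No gene had groups without overlap, against 23.7% of tested genes. The control libraries are the same as in the first comparison, so the changes seen in the 2 comparisons are not independent.

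WT replicate 1 and ARF4 replicate 2, the libraries at the ends of most of these genes, bear on the ARF4 changes as WT replicate 1 does on the GSK5 changes. Without WT replicate 1 alone the changes of OsARF8, OsARF10 and OsARF3 in ARF4 against WT stood at 0.55, 0.28 and 0.28, and without ARF4 replicate 2 alone at 0.7, 0.37 and 0.4. Without WT replicate 3 they stood at 1.3, 1.53 and 1.15, and without ARF4 replicate 3 that of OsARF10 stood at 1.75. WT replicate 3 was the highest WT library for OsARF3, OsARF8 and OsARF10. ARF4 replicate 3 was the lowest ARF4 library for OsARF10. Leaving these libraries out could therefore only raise those changes. Without both WT replicate 1 and ARF4 replicate 2 the change of OsARF10 turned to -0.29, that of OsARF3 to -0.04 and that of OsARF18 to -0.18 (adjusted p = 0.824, 0.934 and 0.312). That of OsARF8 fell to 0.25, and 0 of 8 genes were called, against 8.56% of the genes tested in that setting. In every member gene but OsARF15, WT replicate 1 was the lowest WT library and ARF4 replicate 2 the highest ARF4 library. Leaving out either or both could therefore only lower the change, and this setting was added after seeing the data. WT replicate 3 was also the highest WT library for OsARF22 (51.18 FPKM against 32.52 and 32.55), so leaving it out could only raise the changes. Without WT replicate 3, OsARF22 passed the limma test in both comparisons. The log2 changes were 0.48 in GSK5 (adjusted p = 0.0251) and 0.49 in ARF4 (adjusted p = 0.021), where 11.8% and 15.1% of tested genes were called. No other library left out on its own brought a call.

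GSK5 against ARF4 gave no call either (0 of 8 by limma, 0.483% of tested genes called), with 0 of 8 genes at an unadjusted p under 0.05, against 13.8%. OsARF15 had the change of largest size, 0.3 (SE 0.13, adjusted p = 0.368), at 19.2 ± 2.11 FPKM in GSK5 and 15.4 ± 1.92 in ARF4 (SD, n = 3). GSK5 replicate 1 at 17.15 FPKM lay under ARF4 replicate 2 at 17.65, so the groups overlapped. No gene had groups without overlap, against 26.3% of tested genes. The other 7 genes had changes from -0.25 to -0.01. OsARF22 had -0.01 with an interval of -0.4 to 0.38, and OsARF10 had -0.24 with one of -2.03 to 1.55. Both intervals rest on a spread that the fit shares with WT. With only the 2 groups compared, the SE of OsARF22 was 0.08 in place of 0.17. That of OsARF10 was 0.69 in place of 0.78.

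**Figure D2:**
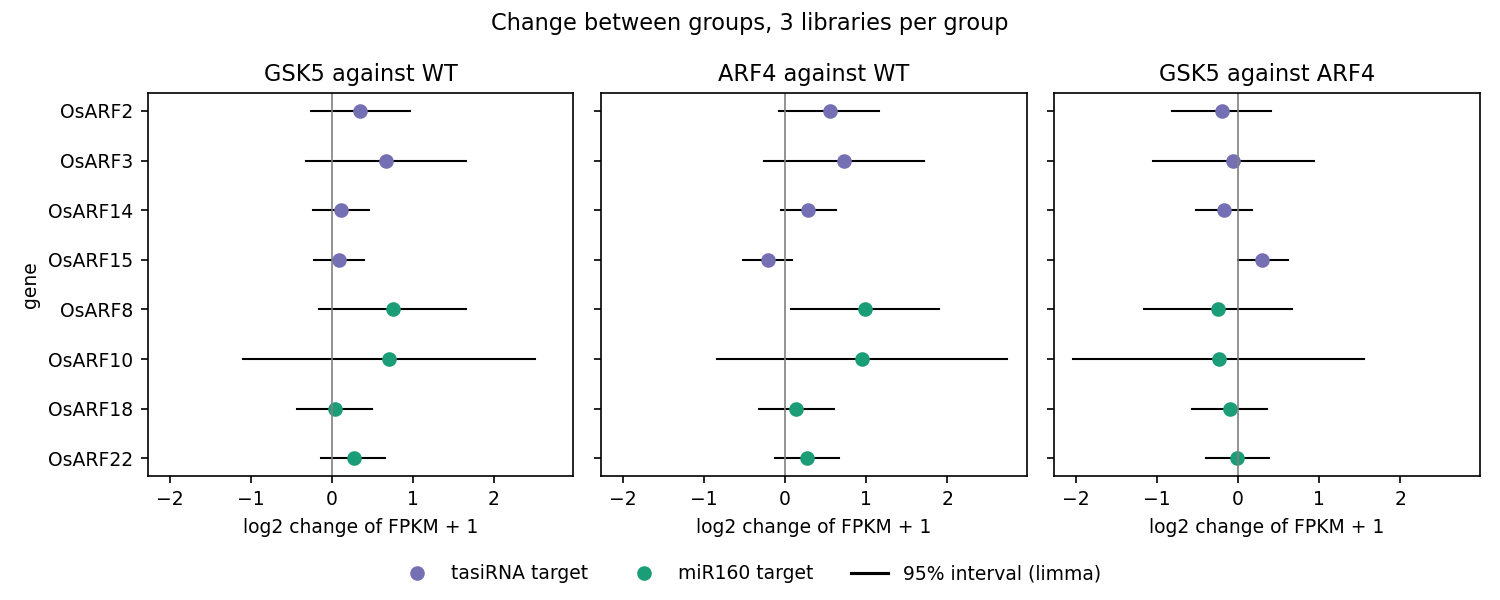
Log2 change of FPKM + 1 (horizontal axes) for the 8 genes in the 3 comparisons, 3 libraries per group; points are limma estimates and lines their 95% intervals. The OsARF10 intervals are the widest, and of the intervals against WT only that of OsARF8 in ARF4 lies wholly above 0, from 0.08 to 1.9, without passing the adjusted test.

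The genes differed widely in their spread among libraries of one group. In WT the SD of log2(FPKM + 1) was 1.26 for OsARF10, 0.869 for OsARF3 and 0.79 for OsARF8, larger than in 96.6%, 91.6% and 89.7% of tested genes, whereas it was 0.138 for OsARF18 and 0.139 for OsARF15. The median of tested genes was 0.272. In GSK5 it was 0.02 for OsARF8 and 0.03 for OsARF18, under the median of 0.114 for tested genes. In ARF4 it was 1.44 for OsARF10, larger than in 97.8% of tested genes, and 0.052 for OsARF22, against a median of 0.241. A gene could thus be among the most variable in one group and among the least in another, as OsARF8 was in WT and GSK5.

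WT replicate 1 was the lowest library for 6 of the 8 genes (3 of 4 tasiRNA targets and 3 of 4 miR160 targets), and ARF4 replicate 2 the highest for 6 of 8. Among all tested genes WT replicate 1 was the lowest for 34.5% and ARF4 replicate 2 the highest for 25%. Both held at once for 5 of 8 genes and for 13% of tested genes. Both also held for 9 of 15 other ARF genes tested. WT replicate 1 and ARF4 replicate 2 also lay at the ends of the first principal component of all tested genes, which held 36.2% of the variance. On it WT stood at -104.3, -52.8 and -0.3, GSK5 at 19.6, 26.6 and 16.5, and ARF4 at 38.8, 53.9 and 2.1. All WT libraries thus lay below all edited libraries, with a wide spread among the WT libraries themselves. The meristem and embryo marker gene OSH1 had 3.65, 13.29 and 7.97 FPKM in WT, 11.9, 12.79 and 11.19 in GSK5 and 10.35, 23.09 and 7.15 in ARF4, with the same lowest and highest library, and the other embryo locus listed stayed under 1 FPKM throughout. The summed level of the 5 endosperm loci ran from 377.99 to 1650.29 FPKM in WT, from 1401.7 to 1595.64 in GSK5 and from 241.04 to 1427.57 in ARF4. Most of this sum came from SWEET11, at 169.28 to 1515.53 FPKM over the 9 libraries. The sum thus mainly follows SWEET11 and is no measure of endosperm content. SSI ran from 34.31 to 82.84 FPKM and BEIIb from 30.67 to 51.45. In GSK5 against ARF4, 3 of the 4 endosperm loci tested lay higher without overlap. Among all tested genes 26.3% had groups without overlap there. The 3 loci were Wx (log2 change 0.93), SSI (0.55) and BEIIb (0.55), while SWEET11 (1.17) overlapped. Wx also lay higher in GSK5 than in WT without overlap (log2 change 1.24, limma adjusted p = 0.1), as did 18.3% of tested genes. The summed level of the 3 green pericarp loci ran from 695.99 to 1131.75 in WT, from 708.47 to 791.49 in GSK5 and from 815.1 to 1703.9 in ARF4. Most of that sum came from the chlorophyll-binding protein gene CAB2R, at 429.59 to 1504.28 FPKM over the 9 libraries. The other green pericarp loci went lower and passed the test, one in each comparison with WT. RCA, the Rubisco activase gene, had 207.22, 210.56 and 176.07 FPKM in WT, 129.97, 105.18 and 91.15 in GSK5 and 208.86, 183.04 and 165.92 in ARF4. It fell in GSK5 against WT by 0.87 on the log2 scale (SE 0.17, limma adjusted p = 0.0399), and the call was lost in 11 of 18 alternatives, with changes from -1 to -0.75 and adjusted p from 0.0235 to 0.198. RBCS2, entered as a gene for the Rubisco small subunit with its name unchecked, has similar copies among which reads could be split. It had 144.63, 55.84 and 133.94 FPKM in WT, 90.75, 97.06 and 75.71 in GSK5 and 19.57, 33.28 and 33.7 in ARF4. It fell in ARF4 against WT by 1.84 on the log2 scale (SE 0.37, limma adjusted p = 0.0385), and the call was lost in 9 of 18 alternatives, with changes from -2.27 to -1.59 and adjusted p from 0.0131 to 0.158. Neither shift was called in the other comparison with WT, and none of the endosperm or embryo loci tested was called in any comparison. The part of tissue make-up in the ARF values was not tested.

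**Figure D3:**
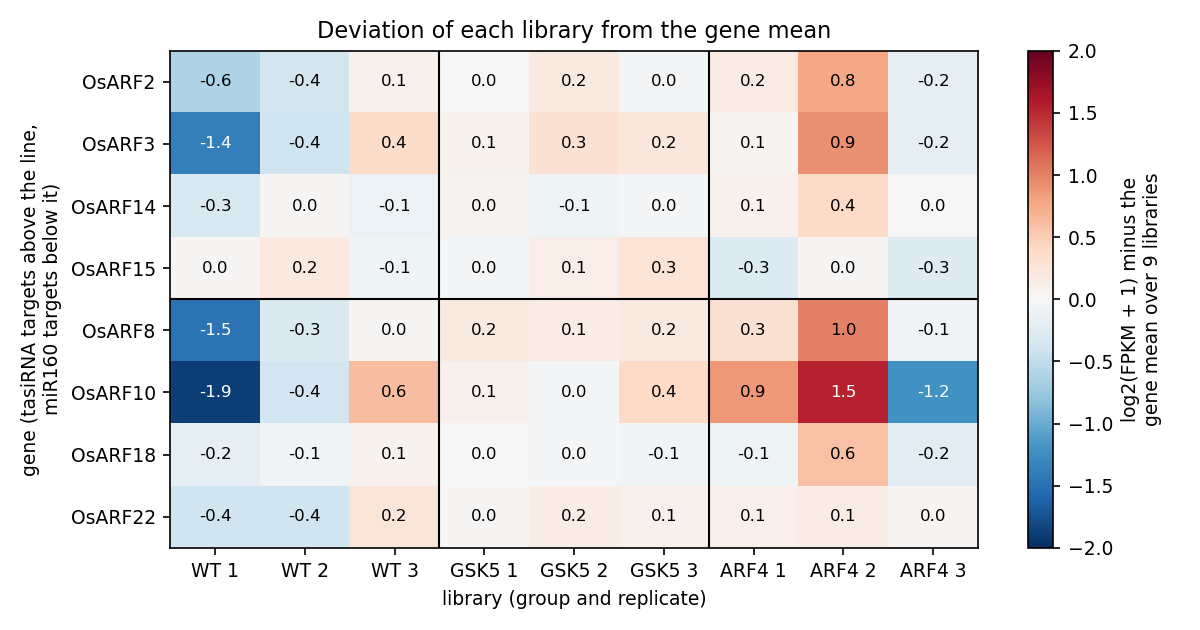
Deviation of log2(FPKM + 1) of each library (columns) from the mean of the gene over 9 libraries (rows; tasiRNA targets above the line, miR160 targets below), with values printed. WT replicate 1 is lowest for OsARF10 (-1.89), OsARF8 (-1.47) and OsARF3 (-1.36), and ARF4 replicate 2 is highest for the same genes (1.55, 1.01 and 0.91), while OsARF15 stays between -0.28 and 0.28.

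FPKM is scaled to gene length, so levels can be summed within a target class. The 4 tasiRNA targets summed to 32.29, 43.25 and 50.58 FPKM in WT, 47.46, 53.3 and 53.29 in GSK5 and 45.71, 70.03 and 40.53 in ARF4. The 4 miR160 targets summed to 56.96, 74.33 and 108.27 FPKM in WT, 96.39, 98.87 and 100.87 in GSK5 and 108.9, 150.66 and 82.65 in ARF4. The miR160 sum exceeded the tasiRNA sum in each of the 9 libraries, and in both classes WT replicate 1 was lowest and ARF4 replicate 2 highest. Within the tasiRNA class OsARF15 held 54.7%, 46.3% and 32.4% of the sum in WT, 36.1%, 36.1% and 40.1% in GSK5 and 31.1%, 25.2% and 35.6% in ARF4. OsARF3 took 17%, 26.9% and 40.7% in WT and between 33.9% and 43.4% in the edited libraries, so that the leading gene of the class was OsARF15 in WT replicates 1 and 2 and OsARF3 in WT replicate 3. Within the miR160 class OsARF22 held 31.6% to 57.1% of the sum over the 9 libraries and OsARF10 4% to 22.7%.

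**Figure D4:**
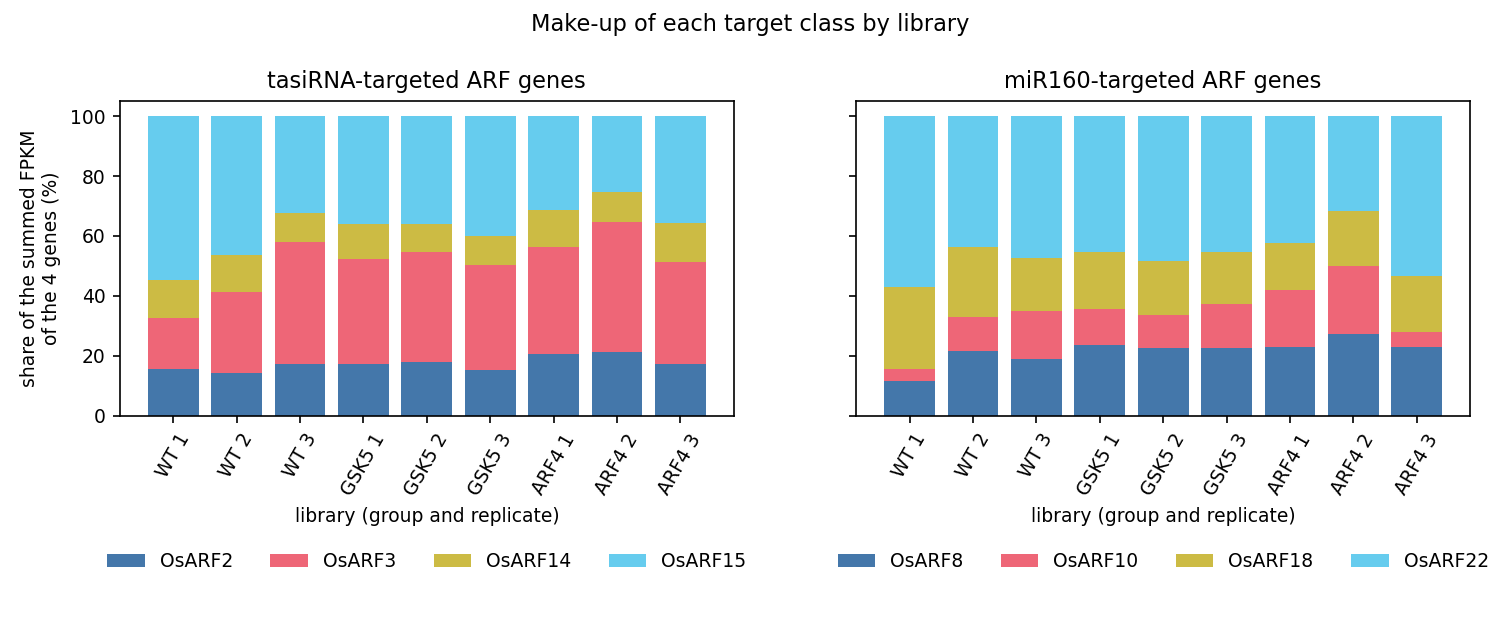
Share of the summed FPKM of each target class (percent, vertical axis) held by its 4 genes in each of the 9 libraries. OsARF15 holds from 25.2% (ARF4 replicate 2) to 54.7% (WT replicate 1) of the tasiRNA class, and OsARF10 from 4% (WT replicate 1) to 22.7% (ARF4 replicate 2) of the miR160 class.

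Ratios between genes within a library can be steady because genes move together or because each varies little. Most of the 28 pairs join genes of different classes, and the steadiest ratios did so too. OsARF14 to OsARF18 lay between 0.25 and 0.35 and OsARF3 to OsARF8 between 0.66 and 1.01. OsARF14 and OsARF18 each varied little in WT (SD of log2(FPKM + 1) 0.166 and 0.138). The least steady ratio was OsARF15 to OsARF10, from 0.52 in ARF4 replicate 2 to 7.78 in WT replicate 1. By root mean square difference of log2 profiles centred per gene over the 9 libraries, the tested genes nearest to the mean tasiRNA-target profile were LOC_Os01g01390 (0.054) and LOC_Os09g27210 (0.058). Those nearest to the mean miR160-target profile were LOC_Os01g42510 (0.079) and LOC_Os03g16010 (0.085). The table does not pair these identifiers with names. These were picked as the closest of all tested genes. The single members lay farther from their class means, from 0.137 for OsARF2 to 0.333 for OsARF3 and from 0.217 for OsARF8 to 0.537 for OsARF10. The median tested gene lay at 0.368 and 0.515. The class means were not particular to their class. To the miR160 mean OsARF2 (0.173) and OsARF3 (0.192) lay nearer than any miR160 target, and OsARF14 (0.352) and OsARF15 (0.511) did not. To the tasiRNA mean OsARF18 lay at 0.155, OsARF22 at 0.188, OsARF8 at 0.366 and OsARF10 at 0.754.

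The genes of the tasiRNA route were read from the same libraries. AGO7, the partner of miR390, was listed between 0.03 and 0.64 FPKM in all 9 libraries and did not pass the filter. SGS3, which stabilizes the cut RNA for copying, had 14.52, 31.85 and 68.89 FPKM in WT, 46.68, 53.5 and 45.16 in GSK5 and 43.84, 71.03 and 42.33 in ARF4, so WT replicate 1 was lowest and ARF4 replicate 2 highest here too. RDR6, the RNA-dependent RNA polymerase, had 6.6, 6.11 and 5.84 FPKM in WT, 5.11, 4.54 and 4.3 in GSK5 and 5.05, 6.76 and 4.16 in ARF4. All its GSK5 libraries lay under all WT libraries, where 11.8% of tested genes did so, and the log2 change of -0.35 did not pass the limma test (SE 0.17, adjusted p = 0.304). DCL4, the dicing enzyme, had 11.34, 16.78 and 21.12 FPKM in WT, 18.26 to 19.76 in GSK5 and 18.98 to 19.89 in ARF4.

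Of 14 small RNA pathway genes 13 were tested and 0 were called by limma in any comparison, beside 2.15%, 3.32% and 0.483% of all tested genes in the 3 comparisons, in the order given above. At an unadjusted p under 0.05 there were 0, 1 and 1 of them, beside 18.5%, 24.9% and 13.8% of all tested genes. Their median log2 changes were 0.24, 0.29 and -0.08. Of the 17 other ARF genes 15 were tested, and OsARF4 in ARF4 against WT was the single call, with 1, 4 and 1 at an unadjusted p under 0.05; their median changes were 0.29, 0.52 and -0.22, beside 0.31, 0.42 and -0.14 for the 8 small-RNA targets. Of 5 loci entered as auxin receptors (names unchecked) 0 were called in the 3 comparisons, with 1, 1 and 0 at an unadjusted p under 0.05 and median changes of 0.14, 0.17 and 0.05.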

How the data were processed

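RNA was extracted with Trizol and made into libraries with an Illumina TruSeq kit, per the labels' protocols. The authors deposited one table of FPKM, rounded to 2 decimals, for 55986 rice gene models. Bowtie 0.12.2 and the build mm8 are named, per the submitters' processing notes; mm8 is a mouse build and cannot describe rice gene models. The rice build, annotation and quantifier were not stated. FPKM is not a count, and count models were not used. The number of reads per library is unknown, but the steps of values from 0.1 to 0.5 FPKM gave relative depths of 71% to 100% of the deepest library.

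Genes with at least 1 FPKM in at least 3 libraries (23385) were analysed as log2(FPKM + 1), which understates changes of low genes. One limma fit (3.58.1, R 4.3.3, mean-variance trend) over 9 libraries gave 3 comparisons, with Benjamini-Hochberg adjustment over all tested genes and calls at 0.05; it was tested on simulated data. Adjusted p-values come from this fit. Summaries were made with pandas 2.3.3 and numpy 2.4.6 in Python 3.11.15, and plots with matplotlib 3.10.9.

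All 8 genes are named, together with called genes of the other ARF, small RNA pathway and auxin receptor lists, the tasiRNA route and the nearest profiles; the tissue marker genes named were chosen after their values were seen. Members and lists were chosen with earlier results of these data known, and the loci of the other lists were written from memory. RefSeq's table (ASM3414082v1) holds no MSU identifiers, and names were checked as a listed name on the same chromosome. One was found for 8 of 8 members, 15 of 17 other ARFs (without OsARF11 and OsARF20) and 10 of 14 small RNA genes. Among marker loci it was found for 4 of 5 of endosperm (without BEIIb), 2 of 3 of green pericarp (without RBCS2) and 1 of 2 of embryo. The name of OsARF2 matched 2 entries on chromosome 1, so its check does not single out a gene. RefSeq also lists ARF2 for OsARF4, ARF8 for OsARF12 and ARF10 for OsARF18, from other numbering systems.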

Additional observations from a re-analysis of the deposited data

How the results depend on the processing

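The 8 genes were refitted under 17 alternatives chosen at the start and 1 added after seeing the data (without WT replicate 1 and ARF4 replicate 2). The count of called genes was 0 in every setting but 1. That setting left out WT replicate 3, the highest WT library for OsARF22. There the count was 1 in GSK5 against WT and 1 in ARF4 against WT (OsARF22), so leaving out 1 library gave 0 to 1. Of 432 gene values 406 kept their sign and their side of the threshold, 24 turned sign and 2 gained a call; the causes were not tested. In GSK5 against WT, OsARF14 turned to -0.06 under quantile normalization and OsARF15 to -0.02 under median-of-ratios scaling. OsARF18 turned to -0.07 under median-of-ratios scaling, -0.04 under quantile normalization and -0.03 without WT replicate 1, with or without ARF4 replicate 2. In ARF4 against WT, OsARF18 turned to -0.11 without ARF4 replicate 2; with WT replicate 1 also left out, OsARF3, OsARF10 and OsARF18 stood at -0.04, -0.29 and -0.18. In GSK5 against ARF4, leaving out ARF4 replicate 2, with or without WT replicate 1, turned OsARF2 to 0.07, OsARF3 to 0.26, OsARF8 to 0.05, OsARF10 to 0.33, OsARF18 to 0.15 and OsARF22 to 0.02; without GSK5 replicate 1 OsARF3 stood at 0 and OsARF22 at 0.02. Over the settings that leave out 1 library, the widest ranges against WT were those of OsARF10 (0.04 to 1.29 in GSK5 and 0.28 to 1.75 in ARF4), OsARF3 (0.22 to 1.09 and 0.28 to 1.15) and OsARF8 (0.3 to 1.05 and 0.55 to 1.3), while OsARF18 ranged from -0.03 to 0.11 and from -0.11 to 0.3. In GSK5 against ARF4 these ranges were -0.42 to 0.07 for OsARF2, -0.28 to 0.26 for OsARF3, -0.49 to 0.05 for OsARF8, -1.05 to 0.33 for OsARF10, -0.26 to 0.15 for OsARF18 and -0.04 to 0.02 for OsARF22. The replicate number as a block gave 0 calls among the 8 genes in each comparison. Over the 9 same-numbered pairs the deviations from group means correlated at -0.349 to 0.083, and 0 of 9 libraries matched best with their own number in both other groups. With 3 libraries per group this check is too small to exclude a shared batch. The labels link the samples by number only. Over all genes the block lowered the calls from 502 to 239, from 776 to 219 and from 113 to 30. The library number, 3 per group, limits precision: the OsARF10 interval in GSK5 against WT runs from -1.09 to 2.5. Part of this width comes from the ARF4 libraries through the shared spread. The SE was 0.78 in the main fit and 0.6 with only the 2 groups compared.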
